A study of Mus musculus with 4 samples.

Results

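The mouse mitochondrial chromosome carries 37 genes, and 10 of them are described here: the ribosomal RNAs mt-Rnr1 and mt-Rnr2, and the mRNAs mt-Nd1, mt-Nd2, mt-Nd4, mt-Co1, mt-Co2, mt-Co3, mt-Atp6 and mt-Cytb. They were chosen by name, as all table entries whose Ensembl gene identifier carries one of these symbols in the GENCODE M21 annotation, and each gene had a single entry. The table held 35 genes of the mitochondrial chromosome and 14949 genes in all. The 10 members supplied over 95% and at most 96.7% of the reads of the mitochondrial chromosome in each library.

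Primary neural stem cells from embryonic mouse neocortex were grown as neurospheres in N2B27 medium with bFGF and EGF. They received lipid nanoparticles (LNP) and were collected 3 days later. The control library, Tut1f/f, came from cells with both Tut1 alleles flanked by loxP sites that received empty LNP. The other 3 libraries came from cells that received LNP carrying Cre recombinase mRNA. Tut1f/f;Cre cells were floxed for Tut1, Trp53f/f;Cre cells for Trp53, and those of the double-floxed library, labelled Tut1f/f;Trp53f/f;Cre, for both genes. TUT1 is the terminal uridylyltransferase that extends the 3′ end of U6 snRNA, and Trp53 encodes the p53 tumour suppressor. Each group was 1 Nanopore long-read cDNA library made from extracted total RNA. The study's methods speak of poly(A)-enriched RNA for its long-read libraries of embryonic pallium, and whether RNA was selected in that way here is not given in the sources used here, so rRNA reads need not stand for all rRNA. None of the 4 received Cre mRNA without a floxed gene, and none with floxed Trp53 received empty LNP. Cre mRNA and genotype therefore cannot be told apart in comparisons with Tut1f/f, and no comparison between 2 libraries has a replicate check. Intervals below are 95% intervals that cover counting error only.

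Values for all 4 libraries are given in this same order, from Tut1f/f to the double-floxed library. Reads assigned to genes numbered 4244467, 2968653, 3432639 and 2863392. Tut1 had 37, 11, 14 and 27 reads, or 9.30, 3.63, 4.02 and 9.15 CPM. CPM are counts per 1000000 gene reads after scaling between libraries by the trimmed mean of M values (TMM), as described below. The Tut1 level thus went against the genotype given for the last pair of libraries. A gene sum also counts transcripts that lack only the floxed exon, so this is a partial check. Trp53 had 175, 67, 10 and 19 reads, lowest in both libraries labelled as floxed for it. The groups below are therefore the libraries as labelled. Tut1f/f stood apart from the rest, with 17.2% of reads assigned to no gene against 27.3% to 30.2%, and with 18.7% of gene reads from the cytosolic rRNA gene CT010467.1 against 5.46% to 9.75%. Neural stem cell markers summed to between 11624 and 13409 CPM. Most of that sum was Fabp7. Of the 11 tested genes of this list, 9, 7 and 8 were above Tut1f/f in the libraries with Cre mRNA. The list medians were log2 0.47, 0.61 and 0.20, beside -0.01, -0.02 and -0.01 for all tested genes. Hes1 was higher in each library with Cre mRNA (log2 1.74, 1.61 and 1.60), as were Nes, Sox2, Pax6 and Sox9. Vim went against most of its list and was lower in each (log2 -0.74, -1.03 and -1.02). Neuron markers summed to 92.3, 88.2, 77.2 and 95.6 CPM, astrocyte markers to 112, 62.7, 55.7 and 89.1 CPM, and oligodendrocyte lineage markers to 381, 634, 728 and 521 CPM. The last of these lists was lowest in Tut1f/f. The spread of the astrocyte sum came mostly from Aldh1l1, at 47.0, 5.28, 3.16 and 24.1 CPM. The part of these marker differences in the results below was not tested. All 5 endothelial markers had no reads, and microglial and fibroblast markers stayed under 1 CPM in each library.

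Mitochondrial genes are transcribed from both strands as long precursors, and tRNAs lying between the other genes are cut out to free the mRNAs and rRNAs. The mRNAs are polyadenylated, which completes the stop codon of several of them, and they are translated on a mitochondrial ribosome built around the 12S rRNA of mt-Rnr1 and the 16S rRNA of mt-Rnr2. The proteins are core subunits of the respiratory chain and of ATP synthase, whose other subunits are made from nuclear genes. Fragments of the mitochondrial genome also lie in the nuclear chromosomes, and reads from a copy with the same sequence cannot be assigned by sequence alone.

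All 10 members are annotated on the plus strand of the mitochondrial chromosome as single-exon genes (build GRCm38). The rRNA genes come first, mt-Rnr1 at chrM:70-1024 and mt-Rnr2 at chrM:1094-2675. They are followed by mt-Nd1 at chrM:2751-3707, mt-Nd2 at chrM:3914-4951, mt-Co1 at chrM:5328-6872, mt-Co2 at chrM:7013-7696, mt-Atp6 at chrM:7927-8607, mt-Co3 at chrM:8607-9390, mt-Nd4 at chrM:10167-11544 and mt-Cytb at chrM:14145-15288. The annotated mt-Nd4, mt-Co3 and mt-Cytb genes end on a lone T, the first base of a stop codon that the poly(A) tail completes. Their last 30 bases, from the GENCODE M21 transcripts, show this, with that T in capitals:
mt-Nd4: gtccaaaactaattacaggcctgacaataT
mt-Co3: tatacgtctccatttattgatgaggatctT
mt-Cytb: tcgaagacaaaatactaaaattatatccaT
The longest uninterrupted stretch of A was 5 bases in mt-Rnr1 and 7 in mt-Rnr2, against 4 to 8 in the mRNA genes. For mt-Rnr2 the window chrM:1473-1509 is shown, with the stretch in capitals:
mt-Rnr2: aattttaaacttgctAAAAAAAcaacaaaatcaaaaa

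Several mRNA members have nuclear copies that are themselves annotated genes. A search of the M21 transcripts, asking for at least 200 aligned bases at 95% identity or more, found copies of 6 of the 8 mRNA members, most of them in a cluster on chromosome 1 (chr1:24611535-24616197, minus strand). Gm28661 matched mt-Co2 over 681 of its 684 bases with no mismatch, Gm10925 matched mt-Atp6 over 678 of 681 bases with none, and Gm29216 matched the last 483 bases of mt-Co1 with 1. The first 60 bases of mt-Co2 (chrM:7013-7072) are shown because they cannot separate the gene from its chromosome 1 copy (chr1:24615506-24615565, minus strand), while a chromosome 2 copy, Gm13341 (chr2:22587903-22587962, minus strand), differs at the bases in capitals:
mt-Co2: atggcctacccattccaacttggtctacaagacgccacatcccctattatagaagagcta
Gm28661: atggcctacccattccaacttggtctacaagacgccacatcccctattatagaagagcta
Gm13341: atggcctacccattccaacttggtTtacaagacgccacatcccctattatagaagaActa
The single difference between Gm29216 (chr1:24616129-24616188, minus strand) and mt-Co1 (chrM:6390-6449) falls at the start of the shared stretch, in capitals here:
mt-Co1: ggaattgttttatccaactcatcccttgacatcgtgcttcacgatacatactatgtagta
Gm29216: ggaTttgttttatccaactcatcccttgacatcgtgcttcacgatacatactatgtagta

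The reads divided unevenly between these genes and their copies. The mt-Co2 entry, for cytochrome c oxidase subunit II, held 7, 9, 15 and 8 reads, whereas Gm28661 held 8119, 9445, 12119 and 6382. The mt-Atp6 entry, for a proton-channel subunit of ATP synthase, held 31, 47, 57 and 49 reads, and Gm10925 held 12903, 10575, 12631 and 12612. The mitochondrial entry thus took between 0.0861% and 0.125% of the joint mt-Co2 reads and between 0.240% and 0.449% of the joint mt-Atp6 reads. For mt-Co1, the catalytic cytochrome c oxidase subunit I, the mitochondrial entry held 45.8% to 58.2% of the joint reads, and its bases before position 1063 lie outside the match to Gm29216.

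Other copies took few reads or none. Gm28437 matches 783 of the 784 bases of mt-Co3, cytochrome c oxidase subunit III, and had 1, 1, 0 and 1 reads. Gm28439 matches 876 bases of mt-Nd4 with no mismatch and had 4, 9, 21 and 5 reads. The less similar chromosome 2 copies of mt-Nd2 (Gm13339, 96.7% identity), mt-Co1 (Gm13340, 97.6%) and mt-Co2 (Gm13341, 95.9%) had no reads, which allows up to 3 reads per library at a one-sided 95% limit of counting error. In Gm28661, 8093 of the 8119 reads of the Tut1f/f library lay in isoforms named after a read rather than the annotated transcript. None of the 35 mitochondrial entries was such an isoform. Levels or ratios of mt-Co1, mt-Co2 and mt-Atp6 are therefore given below both for the mitochondrial entry and with the copies added. Whether the added reads came from mitochondrial or nuclear transcripts was not tested.

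**Figure D1:**
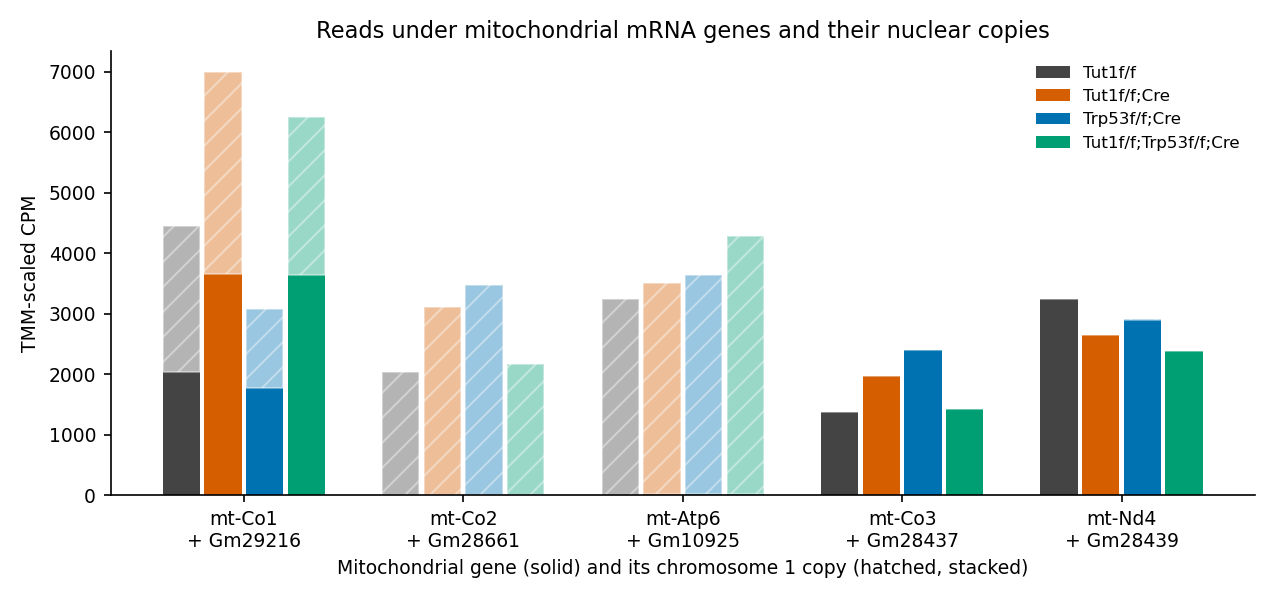
Level in CPM scaled by the trimmed mean of M values (TMM) on the vertical axis, for 5 mitochondrial mRNA genes (solid bars) and, stacked on them, their chromosome 1 copies (hatched bars), with 1 bar per library. Almost the whole bar is hatched for mt-Co2 and mt-Atp6, between 42% and 54% for mt-Co1, and almost none for mt-Co3 and mt-Nd4.

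Between libraries, levels are CPM scaled by TMM, an edgeR factor that sets most genes equal. Differences are log2 ratios of these levels. Scaled with TMM, the median log2 ratio of all tested genes was within 0.04 of 0 in each of the 4 comparisons. In bulk RNA, a lower or higher level cannot be told apart from a different number of mitochondria or amount of other RNA per cell.

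Among the members, the rRNAs had the widest ranges of level over the 4 libraries, with Tut1f/f lowest for both. Between the double-floxed library and Trp53f/f;Cre alone, mt-Co1 differed more (log2 1.04). mt-Rnr2 had 33182, 100808, 104114 and 75353 reads, or 8343, 33283, 29879 and 25538 CPM. It was 3.99-fold higher in Tut1f/f;Cre than in Tut1f/f (log2 1.996, 1.98 to 2.01), 3.58-fold higher in Trp53f/f;Cre (log2 1.84, 1.82 to 1.86) and 3.06-fold higher in the double-floxed library (log2 1.61, 1.60 to 1.63). Its levels in the 3 libraries with Cre mRNA lay within a 1.30-fold range, all above that of Tut1f/f. mt-Rnr1 had 6568, 11556, 14574 and 7386 reads, or 1651, 3815, 4183 and 2503 CPM. It was 2.31-fold higher in Tut1f/f;Cre (log2 1.21, 1.16 to 1.25), 2.53-fold higher in Trp53f/f;Cre (log2 1.34, 1.30 to 1.38) and 1.52-fold higher in the double-floxed library (log2 0.60, 0.55 to 0.65). The double-floxed library was the lowest of the 3 with Cre mRNA for both rRNAs, at log2 -0.74 against Trp53f/f;Cre for mt-Rnr1 and -0.23 for mt-Rnr2. The rRNAs did not keep a fixed proportion, since reads of mt-Rnr2 per read of mt-Rnr1 were 5.05, 8.72, 7.14 and 10.2.

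**Figure D2:**
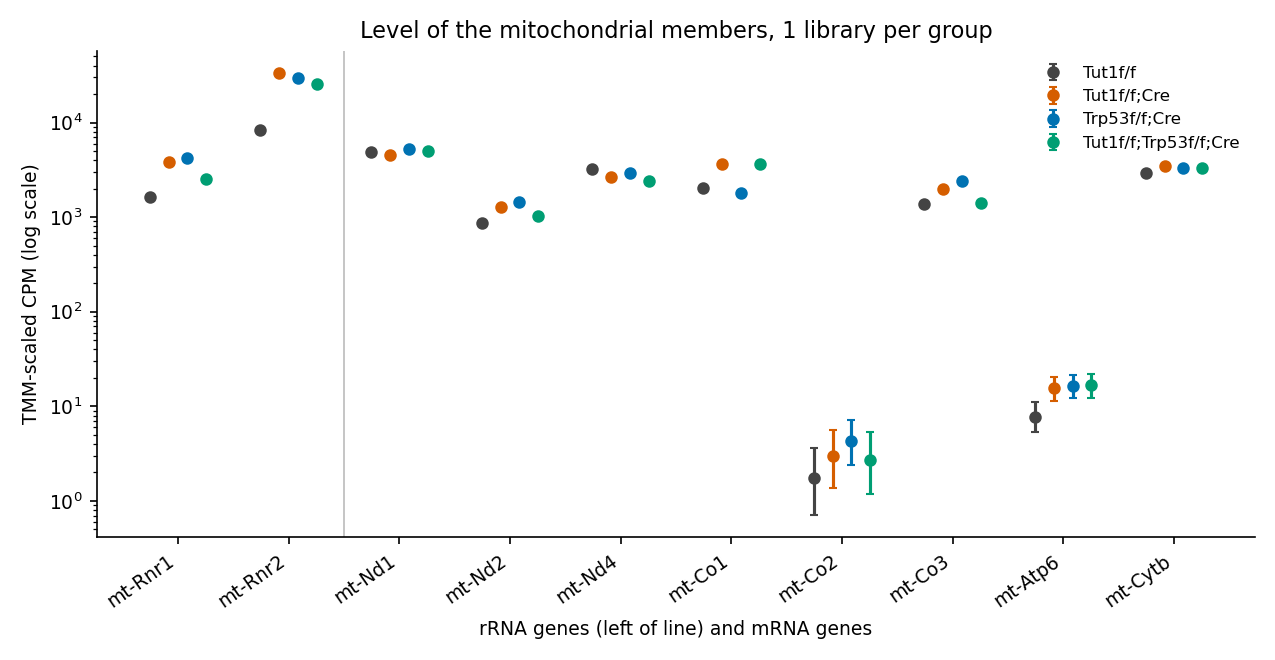
TMM-scaled CPM on a log axis for each member, rRNAs left of the line and mRNAs right of it, with 1 point per library and 95% counting intervals (smaller than the point for most members). The Tut1f/f point is lowest for both rRNAs, the points of mt-Nd1 and mt-Cytb lie close together, those of mt-Co1 spread from 1778 to 3663 CPM, and the entries of mt-Co2 and mt-Atp6 lie orders of magnitude below the other mRNAs.

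Complex I members, which encode membrane subunits of NADH dehydrogenase, included the mRNA that varied least, mt-Nd1. mt-Nd1 had 19319, 13681, 18079 and 14677 reads, or 4858, 4517, 5188 and 4974 CPM, and its highest level was 1.15-fold its lowest. mt-Nd4 had 3242, 2645, 2903 and 2383 CPM and was lower in each library with Cre mRNA than in Tut1f/f, by log2 -0.29, -0.16 and -0.44. mt-Nd2 had 874, 1267, 1439 and 1035 CPM and was higher in each, by log2 0.54, 0.72 and 0.24. None of these 3 genes reached a 2-fold difference in any comparison. mt-Cytb, the only complex III subunit made in mitochondria, had 2912, 3468, 3339 and 3299 CPM, a range of 1.19-fold.

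Among the complex IV members, mt-Co3 and mt-Co1 followed different orders. mt-Co3 had 5453, 5992, 8343 and 4195 reads, or 1371, 1978, 2394 and 1422 CPM, and was highest in Trp53f/f;Cre. The mt-Co2 entry was at 1.76, 2.97, 4.30 and 2.71 CPM. With its copies, mt-Co2 took the same order as mt-Co3 and was highest in Trp53f/f;Cre. Against Tut1f/f it was at log2 0.61 in Tut1f/f;Cre, 0.77 in Trp53f/f;Cre and 0.08 in the double-floxed library. The double-floxed library was at log2 -0.69 against Trp53f/f;Cre. mt-Co1 had 8124, 11095, 6196 and 10763 reads, or 2043, 3663, 1778 and 3648 CPM, and Trp53f/f;Cre was its lowest library. It was 1.79-fold higher in Tut1f/f;Cre than in Tut1f/f (log2 0.84, 0.80 to 0.88) and 2.05-fold higher in the double-floxed library than in Trp53f/f;Cre (log2 1.04, 0.99 to 1.08). With copies, the same differences were log2 0.65 and 1.02. The latter comparison was under 2-fold when DESeq2 size factors replaced TMM, both for the mt-Co1 entry and with copies. For both mt-Co1 and its copy Gm29216, the 2 libraries labelled as Tut1-deleted each lay above the library of the same Trp53 label that was not. In the share of mRNA reads, which needs no scaling between libraries, mt-Co1 took 13.3%, 20.9%, 10.4% and 21.7%, and 19.4%, 25.4%, 12.1% and 24.2% with copies.

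mt-Atp6 shows what the copies do to a ratio. Its own entry was 2.10-fold higher in Trp53f/f;Cre than in Tut1f/f (log2 1.07, 0.41 to 1.75) and 2.13-fold higher in the double-floxed library (log2 1.09, 0.41 to 1.79). With Gm10925, the same ratios were log2 0.16 and 0.40, from 12934 reads in Tut1f/f, 12688 in Trp53f/f;Cre and 12661 in the double-floxed library.

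Per kilobase of gene and with copies added, mt-Rnr2 (5274 CPM per kb), mt-Nd1 (5076) and mt-Atp6 (4775) had the highest levels in Tut1f/f. mt-Co2 (2987), mt-Co1 (2886), mt-Cytb (2545) and mt-Nd4 (2353) followed, then mt-Co3 (1749), mt-Rnr1 (1729) and mt-Nd2 (842). In that order, the counting intervals of mt-Co2 and mt-Co1 overlapped, as did those of mt-Co3 and mt-Rnr1, and no other neighbours did. In Tut1f/f;Cre, mt-Rnr2 stood at 21039 CPM per kb, well above mt-Atp6 (5150), the next. mt-Rnr1 moved up from the ninth place of 10 to the sixth (3995). mt-Rnr2 was the highest and mt-Nd2 the lowest in all 4 libraries. The order of other genes depends on the division by length. Without it, mt-Co1 with copies (4458 CPM) lay above mt-Atp6 with copies (3252 CPM) in Tut1f/f.

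Summed over the 8 mRNAs, the level was log2 0.20 (0.18 to 0.21) higher in Tut1f/f;Cre than in Tut1f/f, 0.16 (0.14 to 0.17) higher in Trp53f/f;Cre and 0.13 (0.12 to 0.15) higher in the double-floxed library. The summed rRNAs were higher by log2 1.89 (1.88 to 1.91), 1.77 (1.75 to 1.79) and 1.49 (1.47 to 1.51). Reads of rRNA per read of mRNA were 0.653 (0.645 to 0.661), 2.11 (2.09 to 2.13), 1.996 (1.98 to 2.02) and 1.67 (1.65 to 1.69). The log2 difference of this proportion from Tut1f/f was 1.69 (1.67 to 1.72), 1.61 (1.59 to 1.64) and 1.36 (1.33 to 1.38), and from Trp53f/f;Cre to the double-floxed library it was -0.26 (-0.28 to -0.23). Without mt-Rnr2 these differences were 1.01, 1.18, 0.47 and -0.72, so their size rests in large part on that gene. With copies counted as mRNA, the proportions were 0.434, 1.35, 1.34 and 1.09, in the same order of libraries. Of all gene reads, the members took 2.37%, 5.58%, 5.19% and 4.62%, the rRNAs 0.937%, 3.79%, 3.46% and 2.89%, and the mRNAs 1.43%, 1.79%, 1.73% and 1.73%.

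**Figure D3:**
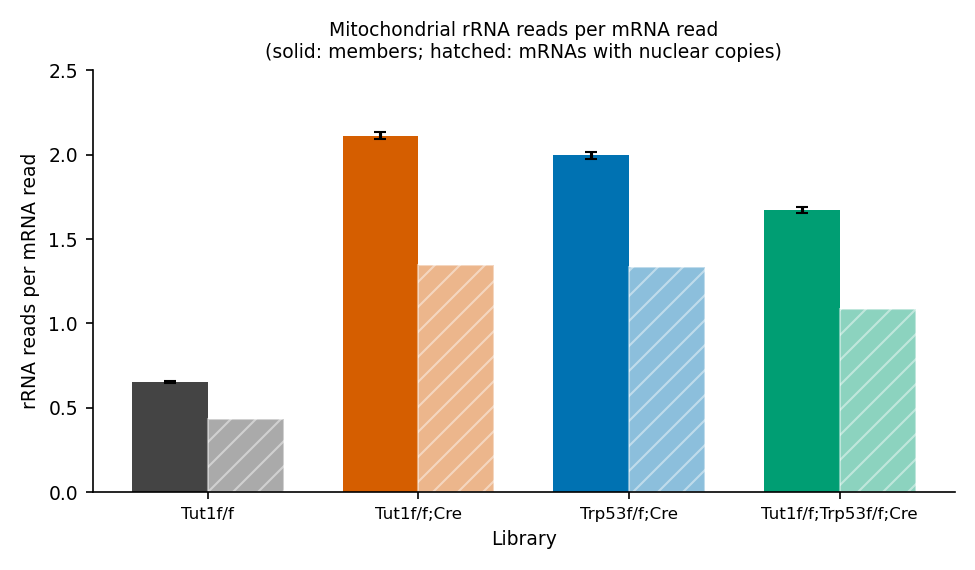
Reads of the 2 mitochondrial rRNAs per read of the 8 mRNAs (vertical axis, from 0) in each library, with 95% counting intervals on the solid bars; hatched bars count the nuclear copies as mRNA. The Tut1f/f bar (0.653) is below 1 and the other solid bars lie between 1.67 and 2.11.

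The cytosolic rRNA gene CT010467.1 was lower in each library with Cre mRNA, by log2 -1.06, -1.18 and -1.91 against Tut1f/f, and the share of reads assigned to no gene was higher. Their part in the mitochondrial rRNA difference was not tested.

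In the comparison of Tut1f/f;Cre with Tut1f/f, 2 of the 10 members, both rRNAs, were at least 2-fold apart with an interval excluding no change. Among all 9882 tested genes the percentage was 26.0, with 12.7 higher. Trp53f/f;Cre against Tut1f/f gave 3 of 10 members, both rRNAs and the mt-Atp6 entry, against 27.8% of tested genes, 12.5% higher. For the double-floxed library against Tut1f/f it was 2 of 10, mt-Rnr2 and the mt-Atp6 entry, against 20.1%, of which 10.3 points were higher. The double-floxed library against Trp53f/f;Cre gave mt-Co1 alone, 1 of 10, against 7.24%, of which 4.68 points were higher. All of these were higher in the first-named library. The counts of members were near the background, while the median log2 ratio of the 10 members was 0.65, 0.76, 0.42 and -0.26 in the 4 comparisons, beside -0.01, -0.02, -0.01 and 0.03 for all tested genes. With copies added, the median of the members was 0.53, 0.46, 0.21 and -0.26.

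**Figure D4:**
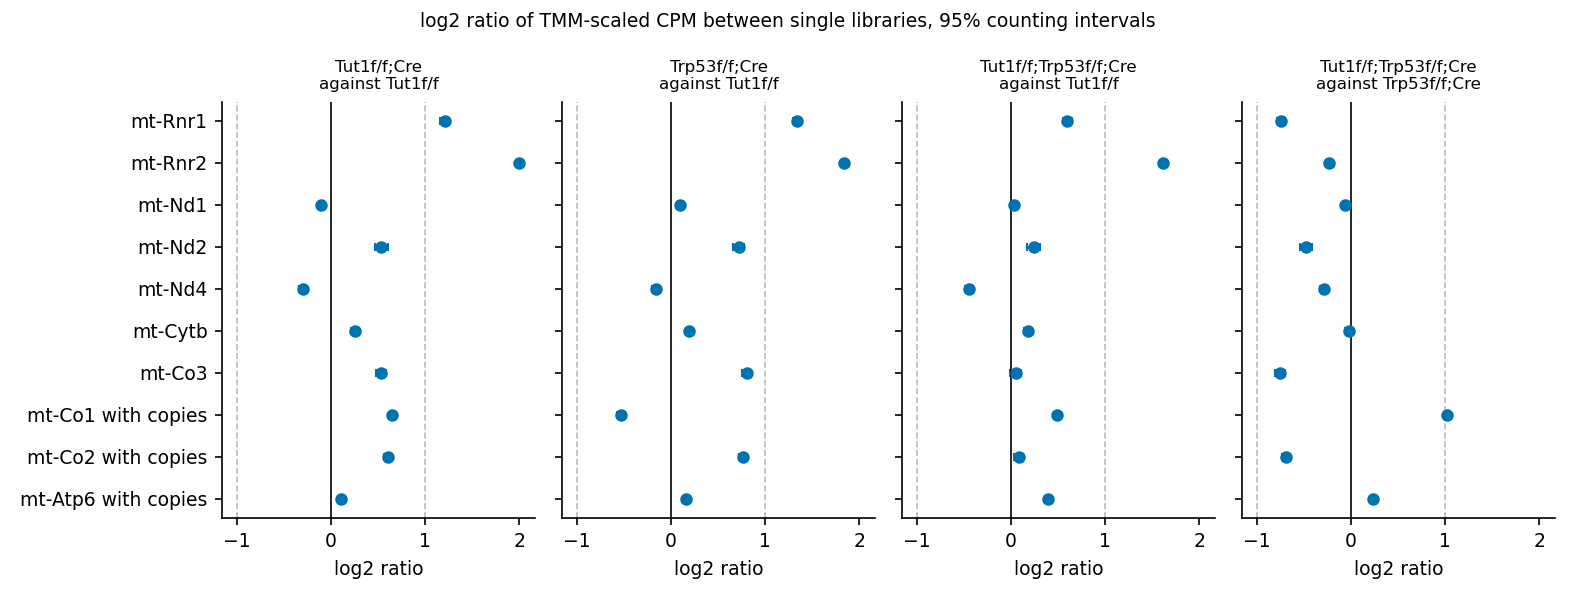
log2 ratio of TMM-scaled CPM (horizontal axis) for each member in 4 comparisons of single libraries, with nuclear copies added for mt-Co1, mt-Co2 and mt-Atp6; bars are 95% counting intervals and dashed lines mark 2-fold. mt-Rnr2 lies between 1.61 and 1.996 in the 3 comparisons with Tut1f/f, and mt-Co1 is the only member past 2-fold in the fourth panel, at 1.02.

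An additive edgeR quasi-likelihood fit over the 4 libraries, with terms for Tut1 and Trp53 as labelled and 1 residual degree of freedom, called no gene for Tut1 (0.0% of 9882) and 1 gene, no member, for Trp53 (0.0101%). At an unadjusted p under 0.05 there were 187 genes for Tut1 and 153 for Trp53, and DESeq2 called 0 and 1. mt-Co1 was higher with the Tut1 label by log2 0.94 (SE 0.35), with an edgeR p of 0.0067 before adjustment and a Benjamini-Hochberg adjusted p of 0.99994. With copies merged it was 0.84 (SE 0.33), with an edgeR adjusted p of 0.99996. The value for mt-Rnr2 was log2 0.88 (SE 0.30) for Tut1 (edgeR adjusted p = 0.99994) and 0.73 (SE 0.30) for Trp53 (edgeR adjusted p = 0.99992). Tut1f/f was the only library with neither label, so both terms also take up its difference from the libraries with Cre mRNA. Between the double-floxed library and Trp53f/f;Cre, both given Cre mRNA, mt-Rnr2 was at log2 -0.23, opposite in sign to its Tut1 term. mt-Co1 was at log2 1.04 there, of the same sign as its Tut1 term. In simulated libraries the Tut1 term of this fit recovered 81.6% of genes changed 8-fold, and smaller changes were not simulated. The simulation used the same dispersion for all genes and no effect of Cre mRNA apart from the Tut1 label. It therefore does not give the share that this fit would recover in the real libraries.

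Setting the 3 libraries labelled with Cre mRNA against Tut1f/f, a comparison added after the values were seen, left 2 residual degrees of freedom and took the spread from 3 different genotypes, with the lone Tut1f/f library assumed to vary like them. This edgeR fit called 1769 of 10596 genes (16.7%), 802 higher (7.57%) and 967 lower (9.13%), or 1018 higher and 783 lower when scaled to library totals. Of the members, mt-Rnr2 (log2 1.83, SE 0.16, adjusted p = 6.0e-05) and mt-Rnr1 (log2 1.08, SE 0.25, adjusted p = 0.0105) were called by edgeR as higher. Without Trp53f/f;Cre, mt-Rnr1 was at log2 0.93 and no longer past 2-fold, whereas mt-Rnr2 stayed between 1.73 and 1.92 with any 1 of the 3 left out. No mRNA member was called with TMM and all libraries. The mt-Atp6 entry reached log2 1.05 (edgeR adjusted p = 0.0503), and it was called with library totals (log2 1.17, edgeR adjusted p = 0.0325) and without the double-floxed library (log2 1.03, edgeR adjusted p = 0.0270). With its copy merged the value was 0.23 (edgeR adjusted p = 0.344).

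The other genes of the mitochondrial chromosome supplied under 5% of its reads in each library. mt-Nd5, a further complex I subunit, had 1574, 2501, 2811 and 2290 reads and was higher by log2 1.06, 1.03 and 0.97 against Tut1f/f, and the Cre mRNA fit called it (log2 1.02, edgeR adjusted p = 0.0048). mt-Nd6, encoded on the opposite strand, had 2803, 2262, 2510 and 2661 reads and log2 ratios of 0.08, 0.03 and 0.36. mt-Nd3 had 504, 368, 581 and 351 reads. mt-Nd4l had 3, 7, 18 and 4 reads, and its fully identical chromosome 1 copy Gm10222 had 648, 1040, 1346 and 959. With the copy added, mt-Nd4l was higher by log2 1.08, 1.26 and 0.996 against Tut1f/f. In the Cre mRNA fit with copies merged it was at log2 1.12. mt-Atp8 had at most 2 reads.

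The tRNA genes had few reads, 228 being the most for any of them in any library. That was mt-Ts1, a serine tRNA gene at chrM:6870-6938 on the minus strand, overlapping the end of mt-Co1 on the plus strand. Its 142, 228, 84 and 190 reads followed the order of mt-Co1, with log2 1.08 for Tut1f/f;Cre against Tut1f/f and 1.42 for the double-floxed library against Trp53f/f;Cre. Whether counting used strand was not given in the sources used here, so reads of mt-Ts1 and mt-Co1 cannot be told apart where the genes overlap or adjoin. mt-Te, the glutamate tRNA gene beside mt-Nd6, had 31, 9, 7 and 5 reads and was lower in each library with Cre mRNA by log2 -1.39, -1.96 and -2.20.

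Nuclear genes that copy, transcribe, process or decay mitochondrial nucleic acids formed a list of 38, of which 36 were tested and 1 (Prorp) had no reads. Against Tut1f/f, 8, 6 and 3 of them were lower past 2-fold in Tut1f/f;Cre, Trp53f/f;Cre and the double-floxed library, and none was higher. The percentages lower among all tested genes were 13.3, 15.3 and 9.76, and those higher 12.7, 12.5 and 10.3. The list medians were log2 -0.61, -0.35 and -0.31, while all tested genes had medians of -0.01, -0.02 and -0.01. The summed level of the list went the other way, at 1233, 1318, 1347 and 1412 CPM, and the gene with the largest difference in CPM was Slirp, a binding partner of LRPPRC on mitochondrial mRNAs, at 404, 670, 692 and 680 CPM. For the double-floxed library against Trp53f/f;Cre, 1 was higher and 1 lower, with a list median of 0.05 against 0.03, where 4.68% of tested genes were higher and 2.56% lower.

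The list genes past 2-fold in all 3 comparisons with Tut1f/f were Tbrg4, Elac2 and Fastk. Elac2, the endonuclease that trims tRNA 3′ ends from the mitochondrial precursors, had 64, 17, 20 and 17 reads, and log2 ratios of -1.52, -1.49 and -1.48. Tbrg4 (also FASTKD4), which acts on the stability of mitochondrial mRNAs, had 62, 14, 17 and 21 reads, and log2 ratios of -1.75, -1.68 and -1.13. Fastk, the founding member of the same family, had 145, 53, 36 and 52 reads, and log2 ratios of -1.06, -1.82 and -1.05. Scaled to library totals, Elac2 alone stayed past 2-fold in all 3, since Fastk moved to log2 -0.94 in Tut1f/f;Cre and -0.91 in the double-floxed library and Tbrg4 to -0.99 in the latter.

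**Figure D5:**
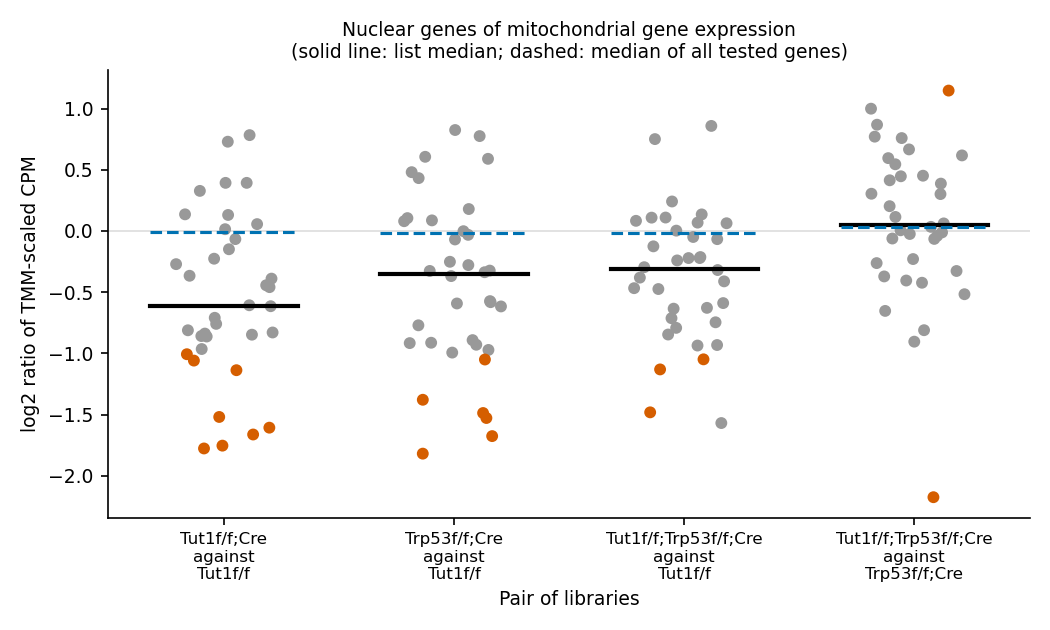
log2 ratio of TMM-scaled CPM (vertical axis) for the nuclear genes of mitochondrial gene expression in 4 comparisons of single libraries, with 1 point per gene and orange for those past 2-fold with an interval excluding no change. The solid line is the list median (-0.61, -0.35, -0.31 and 0.05) and the dashed line the median of all tested genes.

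Nuclear genes also supply the partners of the encoded proteins and rRNAs. Of 78 tested nuclear genes of the respiratory chain and ATP synthase, 1, 1 and 0 were higher past 2-fold and 8, 8 and 3 lower against Tut1f/f, where 12.7%, 12.5% and 10.3% of all tested genes were higher and 13.3%, 15.3% and 9.76% lower. The list medians were log2 0.23, 0.20 and 0.29, beside medians of 0.53, 0.46 and 0.21 for the 8 mitochondrial mRNA entries and of 0.39, 0.18 and 0.13 with copies added. Of 77 tested protein genes of the mitochondrial ribosome, which carries the rRNA members, 2, 2 and 2 were higher and 9, 9 and 6 lower, with medians of -0.06, -0.12 and 0.10. Between the double-floxed library and Trp53f/f;Cre, 3 respiratory chain genes and 1 ribosomal protein gene were higher past 2-fold and none was lower, where 4.68% of all tested genes were higher and 2.56% lower. The list medians were 0.14 and 0.18, beside 0.03 for all tested genes.

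The 5 nuclear genes with a mean of at least 10 CPM over the 4 libraries whose profile over the 4 libraries lay nearest the summed mRNAs, by root mean square difference of centred log2 CPM, were Zfp84, 1700066M21Rik, Adam10, Kpna3 and Pfdn5, at 0.01 to 0.02. Those nearest the summed rRNAs were Golgb1, Cdc73, Ankhd1, Kdm5a and Nrxn3, at 0.03 to 0.06. Golgb1 had 85, 245, 261 and 172 reads. These likenesses rest on 4 libraries and 6671 candidate genes.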

How the data were processed

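RNA from mouse neural stem cells was sequenced as Nanopore cDNA, 1 library for each of 4 groups. The authors deposited a single table of whole-number read counts per transcript isoform, unnormalized, with 255164 isoforms, of which 46637 name a gene. The submitters' processing notes give build mm10. The study's methods name minimap2 and FLAIR for its long-read libraries of embryonic pallium. Whether the same steps made this table, and how reads that fit more than 1 place were treated, is not given in the sources used here. Counts were summed per gene with GENCODE M21 (GRCm38). Reads naming no gene (17.2% to 30.2%) stayed out of library sizes. Libraries held 3936827 to 5125888 reads in all, and the gene reads, 2863392 to 4244467, set the counting error. Levels were TMM-scaled CPM (edgeR 4.0.16, R 4.3.3). Ratios of single libraries carry exact 95% intervals from the binomial split of the 2 counts. Shares carry Wilson intervals. Genes were tested with edgeR's quasi-likelihood test after filterByExpr, with terms for Tut1 and Trp53 labels, and called at a Benjamini-Hochberg FDR under 0.05 and at least 2-fold. DESeq2 1.42.0 was an alternative. The test was checked on simulated data. Nuclear copies were found with blastn 2.17.0 among M21 transcripts. No genome sequence or protein sequences were used here. Nuclear genes were named by a rule: of the mitochondrial gene expression list, those past 2-fold in the same direction in all 3 comparisons with Tut1f/f, and the 5 nearest profiles to each sum. Gm10222 was named after its values were seen. Members and lists were chosen with earlier results of these data known.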

Additional observations from a re-analysis of the deposited data

Results flagged for a closer look

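Read as the same Tut1 contrast on different Trp53 labels, the ratio of Tut1f/f;Cre to Tut1f/f and that of the double-floxed library to Trp53f/f;Cre had opposite signs for several members. The difference between these log2 ratios was 1.949 for mt-Rnr1, 2.223 for mt-Rnr2, 1.012 for mt-Nd2 and 1.281 for mt-Co3. For the sums it was 2.173 for the 2 rRNAs and 0.2219 for the 8 mRNAs, and for rRNA reads per mRNA read it was 1.951. With 1 library in each group the difference was not tested, and the first contrast also differs in Cre mRNA. For the 8 mRNAs the ratio in the second contrast was log2 -0.02 and turned to 0.02 with copies added, so the opposite direction rests on the mitochondrial entries. With copies, mt-Co2 also had opposite signs, at log2 0.61 and -0.69. The mt-Co1 entry was higher in both contrasts, at log2 0.84 and 1.04.

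Within the chromosome 1 cluster of copies, an entry that names no gene, placed near position 24612000, held 617, 258, 393 and 184 reads, in the library order used above. These reads entered no sum above, and whether they came from mitochondrial transcripts was not tested.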

How the results depend on the processing

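Of the values recomputed under another choice, no value past 2-fold changed sign, 60 moved by less than their counting interval or 1.5 times, and 49 moved by more. In each list below, the comparisons with Tut1f/f come first, of Tut1f/f;Cre, of Trp53f/f;Cre and of the double-floxed library, then that of the double-floxed library with Trp53f/f;Cre. Library totals in place of TMM raised each log2 ratio of a gene by 0.12, 0.12, 0.14 and 0.02, which put the summed mRNAs at log2 0.32, 0.27, 0.27 and -0.0025 and the rRNAs at 2.01, 1.88, 1.63 and -0.26. With DESeq2 size factors, the mRNAs moved to 0.18, 0.11 and -0.0659 and the rRNAs to 1.79, 1.47 and -0.32 in all but the first comparison. Totals without mitochondrial genes and CT010467.1 gave 0.22, 0.0827 and -0.0684 for mRNAs and 1.91, 1.44 and -0.32 for rRNAs in all but the second. Adding nuclear copies, chosen after seeing the data, gave mRNAs 0.26, 0.17 and 0.0200 and rRNA to mRNA differences of 1.63, 1.32 and -0.30 in all but the second, so the mRNA ratio to Trp53f/f;Cre changed sign from -0.0241, both intervals excluding 0. As a mean of log2 values over members, the rRNA to mRNA difference was 1.16, 1.11, 0.78 and -0.33, and without mt-Rnr2 it was 1.01, 1.18, 0.47 and -0.72. Members past the threshold numbered 4, 5, 4 and 3 at 1.5-fold. There were 0 in the fourth comparison with DESeq2 size factors and 1 in the third with copies. Members were 1.96%, 3.89%, 3.69% and 3.36% of all reads, and 2.92%, 6.18%, 5.70% and 4.89% of gene reads without CT010467.1, in library order. With no expression filter, 2 genes were called for Trp53. Apart from the Tut1, Trp53 and Cre mRNA fits, no value rests on a test. Genes called for Cre mRNA numbered 1435 to 2403 with 1 of the 3 libraries left out, 1435 without Tut1f/f;Cre, 1850 without Trp53f/f;Cre and 2403 without the double-floxed library. With library totals, 1018 of the 1801 calls were higher, against 802 of 1769 with TMM. The cause of these shifts was not tested. No paired analysis was possible because each group has 1 library. For the same reason no replicate could be left out within a group.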
